A study of Mus musculus with 48 samples.

Results

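Genes that the table names as opposite-strand or antisense transcripts were followed through an RNA immunoprecipitation sequencing (RIP-seq) study of Tnrc6a in mouse embryonic stem cells. They were chosen by name alone: every gene whose full name holds "opposite strand" or "antisense" was taken, which gave 83 of the 20171 genes. Most are long RNAs with no known protein, but the name does not make a gene noncoding. RefSeq lists 67 of the 83 as long noncoding RNAs, 2 as antisense RNAs, 1 as a transcribed pseudogene and 13 as protein-coding genes, among them Slc7a6os, Zbtb8os, Wrap53, Wrap73, Cebpzos, Polr1has, Pigbos1 and Brd3os.

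In RIP-seq a tagged protein is pulled out of a cell lysate on beads and the RNA that comes with it is sequenced (the immunoprecipitate, IP) beside the RNA of the whole lysate (the input). The genotype of every line lists the reporter GFP_5xT71BS. The culture protocol, the same for all libraries, describes 129S6/SvEvTac cells with yGlob [GFP_5xT71BS] and a stably transfected FLAG-Cas9::T2A::Blasticidin transgene. There were 4 lines. The untagged line carried nothing further, the HA-Tnrc6a line was HA-AVI-Tnrc6a, and the remaining lines were HA-AVI-Tnrc6a with Ago2-/- or with Upf1-/-. Each line was grown in triplicate dishes in each of 2 experiments, called 3 and 4, which gave 16 groups of 3 libraries and 48 libraries in all. How many clones stand behind a line is not stated, so a difference between lines can also be one between clones.

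Library totals ran from 11471544 to 19595405 counts in experiment 3 and from 25724085 to 73845953 in experiment 4. The input levels of Ago2 mRNA were lower in the Ago2 knockout (92.8 to 97.1 CPM, counts scaled to library size, against 205.0 to 209.7 in HA-Tnrc6a cells of experiment 3, and 124.3 to 135.6 against 302.5 to 323.4 in experiment 4). Upf1 mRNA was not lower in the line labelled Upf1 knockout. It stood at 121.9 to 123.6 CPM against 74.4 to 83.3 in experiment 3 and at 135.2 to 142.1 against 96.7 to 99.6 in experiment 4, so the line is called "labelled Upf1 knockout" here and every direction drawn from it rests on the label. The 8 stem cell markers (Pou5f1, Nanog and others) summed to between 6400 and 8089 CPM in every input library. Other marker sums differed between lines: the 3 neural markers gave 76.8 to 85.2 CPM in HA-Tnrc6a inputs over both experiments, 102.2 to 110.1 in the Ago2 knockout and 47.5 to 64.4 in the labelled Upf1 knockout. The 3 mesoderm markers gave 5.29 to 6.93, 4.54 to 6.39 and 8.15 to 15.6. Their part in the input differences was not tested.

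Antisense and opposite-strand RNAs are transcribed from the strand facing a named sense gene, often from a start site shared with it, and some act on that gene in the nucleus while others are exported like mRNAs. Tnrc6a is a mouse GW182 protein, the scaffold that links Argonaute proteins such as Ago2, which carry microRNAs, to the enzymes that shorten poly(A) tails and silence mRNAs. Upf1 is the helicase of nonsense-mediated decay, which removes RNAs whose reading frames end early. Noncoding RNAs in the cytoplasm carry short chance reading frames and can meet both systems.

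The library kit was stranded. How strand was used in counting is not given in the sources used here, so reads of a member and of a gene it overlaps may not have been told apart. Of the 83 members, 65 overlapped the RefSeq span (GRCm38.p6) of at least 1 other gene and 18 overlapped none. For 6 members, Oip5os1 among them, the gene length in the deposited table exceeded the RefSeq span, so the gene models that were counted are not the RefSeq ones and the overlaps given here are approximate. Sense partners were found from symbol or name for 72 members, 71 genes in all (Mat2a, Xist, Trp53 and a few others were added after the table was seen and are in no count), and the partner's own span overlapped in 52 of those pairs. The members were short, with a median length of 2183 bases (430 to 8306) against 3309 bases over all genes.

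The first bases of the transcript and what lies before them show how close some of these starts stand to the sense gene. These 6 windows belong to members on which the results turn. Each gives 100 bases before the RefSeq start in lower case and the first 50 transcribed bases in capitals, 5′ to 3′ on the member's own strand (GRCm38.p6).
Oip5os1, chr2:119594196-119594345, plus strand: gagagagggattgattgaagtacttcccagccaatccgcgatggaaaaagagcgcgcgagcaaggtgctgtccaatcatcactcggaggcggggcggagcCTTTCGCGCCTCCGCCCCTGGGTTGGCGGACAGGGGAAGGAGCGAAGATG
Uchl1os, chr5:66676448-66676597, minus strand: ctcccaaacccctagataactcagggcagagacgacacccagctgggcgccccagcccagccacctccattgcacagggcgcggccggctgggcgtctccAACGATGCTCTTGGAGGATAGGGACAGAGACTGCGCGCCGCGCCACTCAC
Appbp2os, chr11:85235066-85235215, plus strand: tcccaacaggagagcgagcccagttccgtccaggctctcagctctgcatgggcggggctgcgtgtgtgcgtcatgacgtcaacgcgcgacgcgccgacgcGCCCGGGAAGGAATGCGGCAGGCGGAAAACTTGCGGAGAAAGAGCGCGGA
Dhrs13os, chr11:78032616-78032765, minus strand: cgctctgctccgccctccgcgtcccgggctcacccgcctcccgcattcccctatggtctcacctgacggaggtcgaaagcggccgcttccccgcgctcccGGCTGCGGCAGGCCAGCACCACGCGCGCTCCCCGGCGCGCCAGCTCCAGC
Particl, chr6:72438583-72438732, plus strand: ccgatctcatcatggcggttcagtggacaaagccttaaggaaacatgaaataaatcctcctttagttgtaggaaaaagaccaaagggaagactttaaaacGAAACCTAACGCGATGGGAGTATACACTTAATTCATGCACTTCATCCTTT
Zfas1, chr2:167062834-167062983, plus strand: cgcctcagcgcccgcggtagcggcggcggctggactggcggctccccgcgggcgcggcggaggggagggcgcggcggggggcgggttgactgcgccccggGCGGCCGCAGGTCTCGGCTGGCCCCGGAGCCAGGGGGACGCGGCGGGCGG

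The Appbp2os start lies 46 bases from that of Appbp2, and the pair runs away from each other. The Zfas1 start lies 81 bases from that of Znfx1, with both starts facing inward, so that the beginnings of the transcripts overlap. The distance was 352 bases for Dhrs13os and Dhrs13, 376 for Uchl1os and Uchl1, 873 for Particl and Mat2a, and 24209 for Oip5os1 and Oip5, which do not overlap. Windows of 300 bases around the start (250 before and 50 after) were in RefSeq's table for 69 members. They held a median of 11 CpG dinucleotides and 54.7% GC, against 7 and 52.7% over 27025 genes. The CCAAT box (CCAAT, either strand) occurred in 27 of the 69 windows against 37.9% of all windows, and the GC box (GGGCGG, either strand) in 26 against 35.9%. The TATA box (TATAAA, either strand) occurred in 6 against 14.2%. The cAMP response element (TGACGTCA, which reads the same on both strands), visible in the Appbp2os window above as tgacgtca, occurred in 2 member windows and in 1.88% of all. These matches describe letters in the windows and were chosen for the search after the sequences had been read.

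Most members were present at low levels. Their median input level was 2.54 CPM against 10.1 CPM over all genes, 22 members reached 10 CPM and 26 stayed below 1 CPM, the lowest at 0.0661. The highest were Zfas1, which hosts small nucleolar RNAs (snoRNAs) in its introns, at a mean of 123.7 CPM over the 24 inputs, Tomm6os at 79.3, Oip5os1 at 76.2, Slc7a6os at 54.2, Rbfaos at 48.6, Zbtb8os at 44.9, Epb41l4aos at 34.6, Rab10os at 29.6, Wrap53 at 29.2 and Rbm3os at 26.6. Set per kilobase of gene length, which allows genes to be compared, the order changed. The short Epb41l4aos came first at 80.6 CPM per kilobase, ahead of Zfas1 at 65.1, Rbm3os at 27.4 and Tomm6os at 26.9, while the long Oip5os1 came to 9.18 and Rab10os to 4.83. Foxd2os, in the fixed list of antisense RNAs with a known role, had a mean of only 0.117 CPM.

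Which antisense RNAs were recovered with Tnrc6a was asked by comparing the log2 ratio of IP to input in HA-Tnrc6a cells with the same ratio in untagged cells, averaged over the experiments. Some members were recovered more than 2 log2 units above untagged beads. Among those with an average log2 CPM of 0 or more, the highest were Uchl1os, Appbp2os, Uckl1os and Oip5os1. Others were lower than with untagged beads, led by Rab26os, Tsix and Zfas1 among members with an average log2 CPM of 0 or more. Of the 83 members, 22 were higher and 22 lower (edgeR quasi-likelihood test, Benjamini-Hochberg adjusted p under 0.05), that is 44 called, where 62% of the 19993 genes tested were called, 29.8% higher and 32.2% lower. Higher by at least 2-fold were 13 of the 83 members, and lower by at least 2-fold were 8. Over all 19993 genes tested these were 3294 and 989, so the higher share was similar and the lower share larger, though on few members. The 8 lower members include Arhgap33os, Atad3aos and Cd55os, with mean inputs of only 0.867, 0.266 and 0.755 CPM. The median over the members was -0.20 on the log2 scale, and -0.10 over all genes. All 44 called members had the same sign in experiments 3 and 4. Of the 13 protein-coding members 2 were higher and 6 lower, and of the 70 other members 20 were higher and 16 lower.

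**Figure D1:**
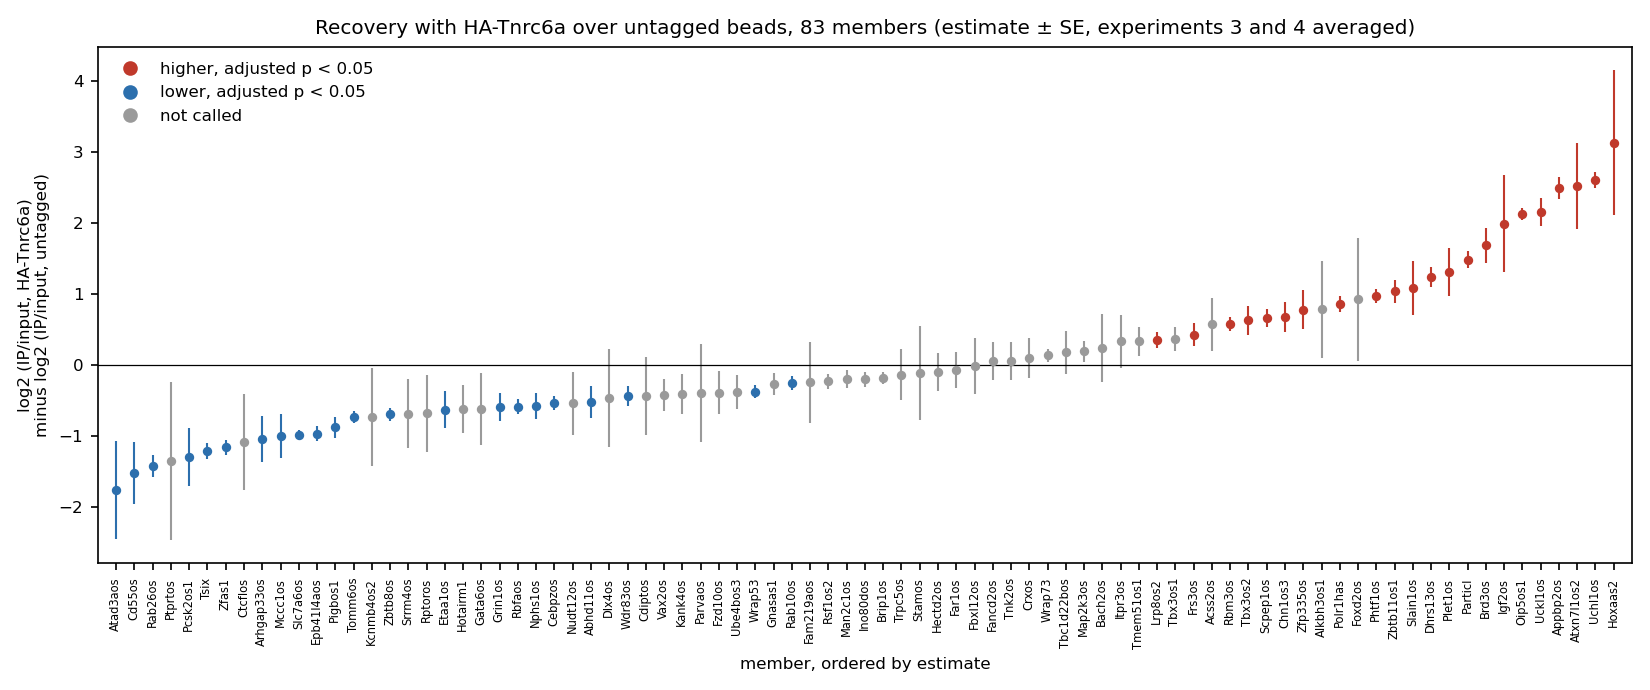
Log2 recovery with HA-Tnrc6a over untagged beads (y axis) for each of the 83 members (x axis, ordered by value), as the edgeR estimate with its standard error, experiments 3 and 4 averaged. Red and blue points passed an adjusted p of 0.05. The 3 highest of the 22 red points are Hoxaas2, Uchl1os and Atxn7l1os2, and wide bars mark members with few counts.

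Oip5os1, also known as Cyrano, is a conserved long noncoding RNA best known for a site that pairs with the microRNA miR-7 and leads to that microRNA's destruction. The mature mouse miR-7a-5p has this sequence in RefSeq, with its seed (bases 2 to 8) in capitals.
mmu-miR-7a-5p: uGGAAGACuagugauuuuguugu
Oip5os1 lies at chr2:119594296-119600746. In untagged cells its IP libraries held 75.0, 88.1 and 92.7 CPM in experiment 3, against inputs of 84.6 to 92.5. In experiment 4 they held 87.8, 72.1 and 82.3, against inputs of 75.1 to 79.2. In HA-Tnrc6a cells the IP libraries held 433, 385 and 330 CPM in experiment 3 and 300, 256 and 249 in experiment 4, while the inputs ranged from 65.6 to 86.3. Every HA-Tnrc6a IP library thus lay above every input and every untagged IP. The log2 enrichment was 2.13 ± 0.09 (SE; 2.25 in experiment 3 and 2.00 in experiment 4; edgeR quasi-likelihood adjusted p = 1.16e-20). Its namesake Oip5, a centromere protein gene whose span does not overlap, was lower at -0.30 (adjusted p = 0.00117).

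Uchl1os is the antisense RNA of the ubiquitin hydrolase gene Uchl1, and in mouse neurons it is known for raising the translation of Uchl1 mRNA through a repeat element. It lies at chr5:66626495-66676497 and overlaps Uchl1. Its IP libraries held 195, 166 and 150 CPM in HA-Tnrc6a cells of experiment 3, against 30.6, 27.4 and 25.2 in untagged cells. In experiment 4 they held 97.0, 75.0 and 75.0 against 13.6, 11.9 and 12.5. The groups did not overlap in either experiment, and the log2 enrichment was 2.61 ± 0.11 (adjusted p = 7.77e-20). Uchl1 itself stood at 2.75 ± 0.09, and the difference within the pair was not tested.

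Appbp2os at chr11:85235166-85238304 shares its start region with Appbp2, an adaptor protein gene, without overlapping it. Its IP levels were 17.9, 22.0 and 20.9 CPM in HA-Tnrc6a cells of experiment 3 and 25.4, 29.6 and 25.9 in experiment 4. The untagged IP levels were 2.42, 4.07 and 3.70 and then 4.26, 5.51 and 5.65. The log2 enrichment was 2.50 ± 0.15 (adjusted p = 4.91e-16) and that of Appbp2 was 2.28. Uckl1os, opposite a uridine kinase gene, rose by 2.16 ± 0.20 while Uckl1, whose span it overlaps, stood at -0.18 (adjusted p = 0.214). Brd3os, a protein-coding member, rose by 1.69 ± 0.25 while Brd3, the bromodomain gene it is named for, was lower at -0.34. Particl, an RNA known as radiation-induced and transcribed from the promoter of the methionine adenosyltransferase gene Mat2a, rose by 1.49 ± 0.12, and Mat2a by 1.39. Plet1os rose by 1.30 ± 0.34 with Plet1 at 1.81, and Dhrs13os by 1.24 ± 0.14 while Dhrs13 was lower at -0.60. Plet1os and Dhrs13os overlap their partners, Dhrs13os also overlaps Phf12, and the starts of Particl and Mat2a face toward each other. Reads of these genes may therefore not have been told apart.

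Some members with too few counts for the naming rule also had high values, and are named here after these were seen. Hoxaas2 was higher by 3.14 ± 1.02 at a mean input of 0.0661 CPM, Atxn7l1os2 by 2.53 ± 0.61 at 0.257 and Igf2os by 1.99 ± 0.69 at 0.201. Their standard errors are several times those of Uchl1os and Oip5os1, so their place in the order is uncertain.

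The lower members were read against what the beads bound without a tag. Zfas1 was among the RNAs that untagged beads held in excess. Its untagged IP libraries carried 228, 192 and 175 CPM in experiment 3 and 179, 134 and 137 in experiment 4, against inputs of 87.8 to 92.8 and 47.5 to 49.4. The HA-Tnrc6a IP libraries carried 95.6, 93.1 and 86.3 and then 63.4, 50.1 and 45.7, with inputs of 71.3 to 80.0 and 45.7 to 49.9. On the log2 scale IP over input was 1.15 and 1.62 in untagged cells of experiments 3 and 4, and 0.29 and 0.13 in HA-Tnrc6a cells. The log2 enrichment was -1.16 ± 0.10 (adjusted p = 2.25e-11). Znfx1, the helicase gene that faces it, stood at the other end with 4.24 ± 0.11.

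Epb41l4aos, a short RNA that overlaps a snoRNA gene (Gm23639), differed from Zfas1 in this respect. Its untagged IP (43.2, 35.1 and 38.4 CPM in experiment 3, and 19.1, 15.0 and 18.2 in experiment 4) stayed near its untagged input. Its HA-Tnrc6a IP fell to 17.9, 17.3 and 20.9 and to 8.34, 9.56 and 8.85, below all HA-Tnrc6a inputs of the same experiment (30.6 to 35.2 and 19.4 to 20.3). The log2 enrichment was -0.97 ± 0.11 (adjusted p = 1.20e-09). The 14 genes named as snoRNA host genes, a list to which neither RNA belongs by name, moved the same way: 12 were lower, the other 2 were not called, and the median was -1.19. Among them Gas5 was lower by 1.29 on the log2 scale with untagged IP levels of 890 to 1113 CPM against inputs of 427.2 to 481.7 in experiment 3.

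Tsix, the antisense RNA that blocks Xist on the active X chromosome, was lower at -1.22 ± 0.11 (adjusted p = 1.24e-11). Its untagged IP held 31.0, 21.1 and 24.8 CPM against inputs of 11.9 to 14.3 in experiment 3, and 16.8, 16.4 and 16.8 against 7.74 to 8.15 in experiment 4. Its HA-Tnrc6a IP had a mean of 14.0 CPM against an input mean of 14.0 in experiment 3, and 9.39 against 12.6 in experiment 4. Xist overlaps Tsix and was lower at -1.38, so the values of the pair may share reads. A fixed list of 14 long noncoding RNAs taken as nuclear, Xist among them, had 13 in the table. Of these, 7 were lower and 3 higher, with a median of -0.74. Rab26os was lower at -1.43 ± 0.16, Arhgap33os at -1.04 ± 0.32, Mccc1os at -1.004 ± 0.31 and the protein-coding Slc7a6os at -0.99 ± 0.07. For Rab26os the mean HA-Tnrc6a IP was 5.77 CPM against an input mean of 5.96 in experiment 3, and 1.39 against 3.65 in experiment 4. Its mean untagged IP was 15.6 CPM against 8.26 in experiment 3, and 4.91 against 3.45 in experiment 4. The low members Atad3aos (-1.77 ± 0.69), Cd55os (-1.53 ± 0.44) and Pcsk2os1 (-1.30 ± 0.41), named after their values were seen, were also called lower. Of the 22 lower members, 12 lay above their input in the untagged IP of both experiments, and 19 lay below it in the HA-Tnrc6a IP of both. Of the 22 higher members, 7 lay above input in the untagged IP of both experiments and 21 in the HA-Tnrc6a IP of both. These ratios are parts of the enrichment value and no separate support for the calls.

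**Figure D2:**
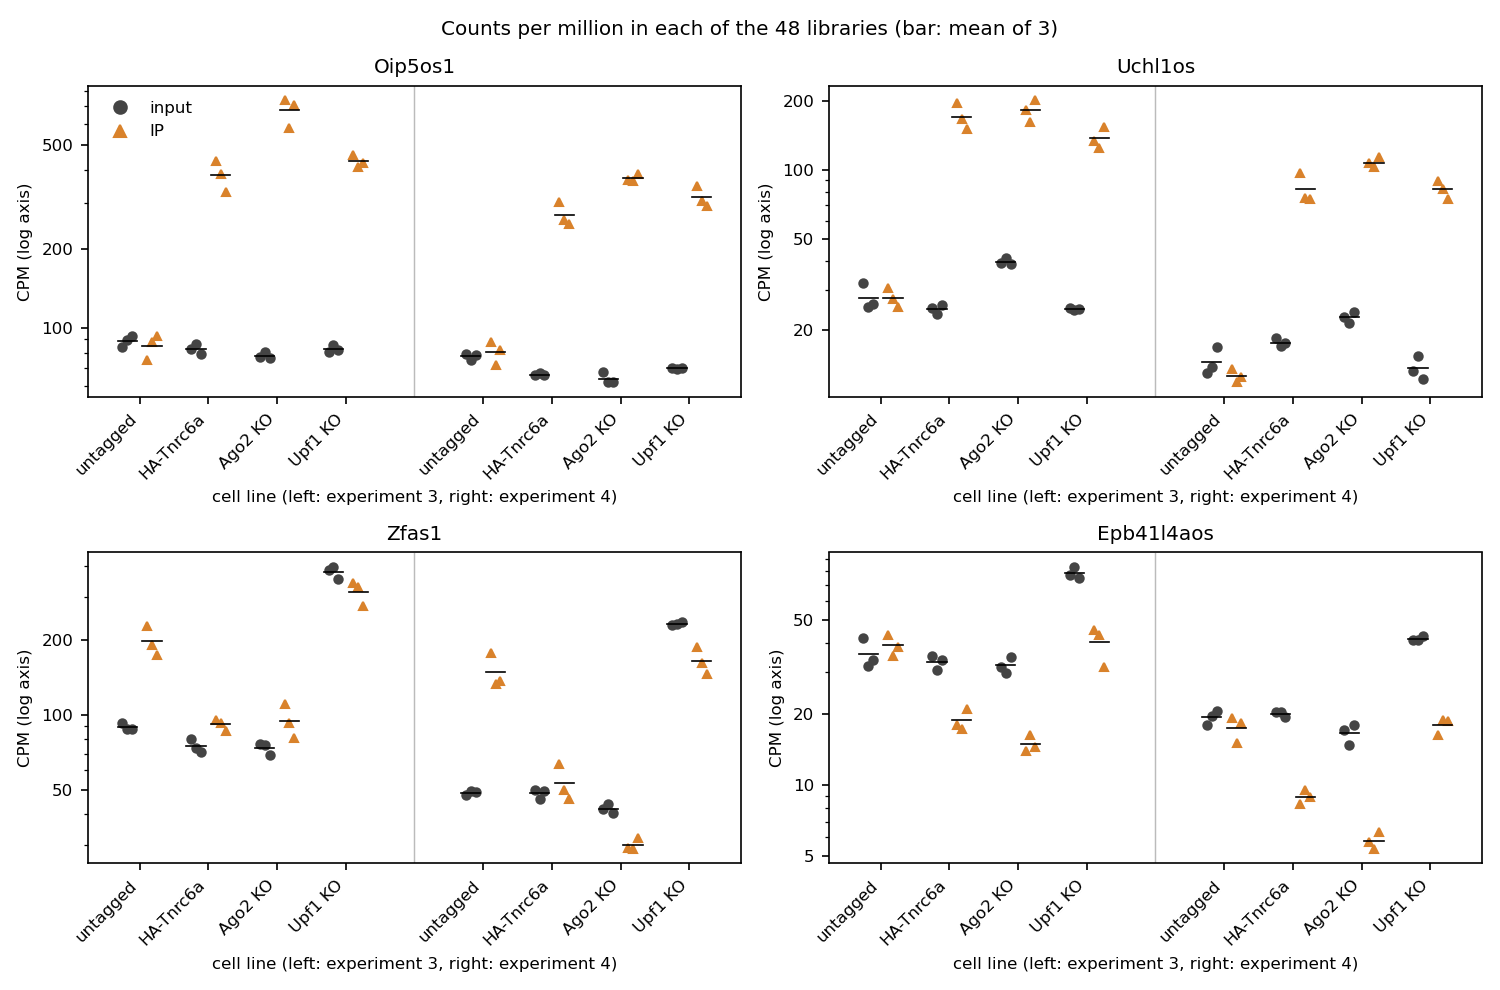
CPM on log axes in every library for Oip5os1, Uchl1os, Zfas1 and Epb41l4aos, by cell line (x axis), with inputs as circles, IPs as triangles and bars at the mean of 3 libraries. Oip5os1 and Uchl1os rose in the IPs of all 3 tagged lines, Zfas1 was above input in the untagged IP, and Zfas1 and Epb41l4aos rose in inputs labelled Upf1 knockout.

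Whether a member followed its sense gene depended on the pair. Both genes of a pair were called in 34 of the 72 pairs, in the same direction in 26 and in opposite directions in 8. Among the 52 pairs whose spans overlap, 24 were called on both sides, 21 of them in the same direction, and the median absolute difference between member and partner was 0.36 on the log2 scale. Among the 20 pairs without overlap, 10 were called on both sides, 5 in each way, and the median difference was 1.30. Restricted to members of at least 5 CPM in the inputs, the median difference was 0.30 over 16 overlapping pairs and 1.30 over 9 others. Pearson's r across pairs was 0.46 with overlap and 0.23 without, and at 5 CPM or more 0.21 and 0.22, a description only, since pairs share their libraries. The part that reads counted for both genes have in the values of overlapping pairs was not tested. Of the 71 partners, 31 were higher and 25 lower.

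**Figure D3:**
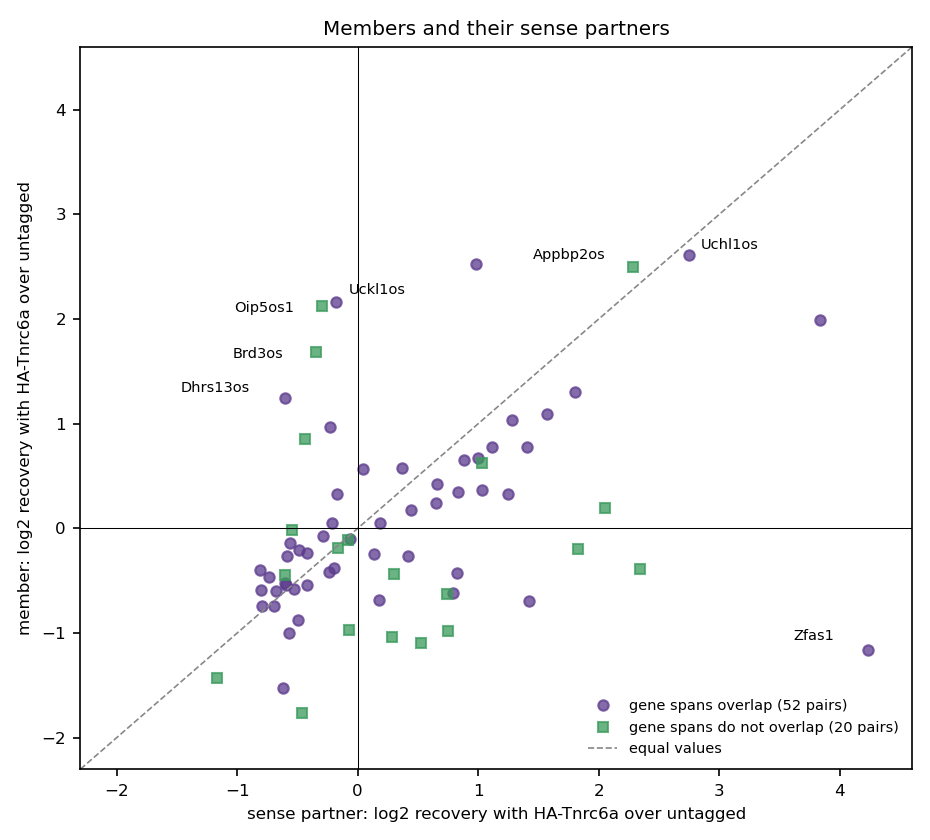
Log2 recovery with HA-Tnrc6a over untagged beads for each member (y axis) and its sense partner (x axis), 72 pairs, with 52 pairs of overlapping spans as circles and 20 others as squares. Uchl1os and Appbp2os lie near the line of equal values, while Oip5os1, Uckl1os, Brd3os and Dhrs13os lie left of 0 and Zfas1 far to the right.

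The recovery in knockout lines was compared with that in HA-Tnrc6a cells, again as IP over input. Without Ago2, recovery of Particl and Oip5os1 rose, and that of Polr1has, Scpep1os and Uckl1os fell. Of 82 members tested, 8 were higher and 7 lower (15 called), where 21.3% of 19995 genes were called, 9.09% higher and 12.3% lower, and no called member changed by 2-fold or more. The median was 0.00, against -0.04 over all genes. This comparison shares the HA-Tnrc6a libraries with the enrichment above. Only 4 of the 8 higher and 5 of the 7 lower members were also called higher with HA-Tnrc6a than with untagged beads. For the rest, a change in recovery need not be one of RNA held through Tnrc6a.

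Oip5os1 IP libraries held 739, 580 and 710 CPM in the Ago2 knockout of experiment 3 and 365, 361 and 387 in experiment 4, all above the HA-Tnrc6a IP libraries of the same experiment. Its inputs were 61.7 to 80.3 CPM in the knockout. The log2 change in recovery was 0.71 ± 0.08 (0.91 and 0.51 by experiment; edgeR quasi-likelihood adjusted p = 4.72e-08). Oip5 did not pass the test (-0.17, adjusted p = 0.165).

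Particl IP libraries held 62.5, 59.1 and 78.3 CPM against 32.0, 33.0 and 35.0 in experiment 3, and 104, 110 and 114 against 63.7, 58.8 and 53.3 in experiment 4. The groups did not overlap, the change was 0.83 ± 0.10 (adjusted p = 6.14e-08), and Mat2a rose alongside by 0.77. Tbx3os1, opposite the transcription factor gene Tbx3, rose by 0.47 ± 0.12 and Tbx3 by 0.64. The starts of Particl and Mat2a face toward each other and Tbx3os1 overlaps Tbx3, so the values within each pair may share reads. Plet1os (0.90 ± 0.29), Etaa1os (0.76 ± 0.23), Frs3os (0.54 ± 0.16), Wrap73 (0.39 ± 0.08) and Brip1os (0.27 ± 0.08) were also higher. Against untagged beads, however, Etaa1os was lower with HA-Tnrc6a (-0.63), and Wrap73 (0.13) and Brip1os (-0.18) were not called. By experiment (3, then 4) the values were 0.66 and 1.13 for Plet1os, 1.19 and 0.32 for Etaa1os, and 0.95 and 0.14 for Frs3os.

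Polr1has is a protein-coding member that starts 75 bases from the RNA polymerase I subunit gene Polr1h. Its IP fell from 46.1, 42.9 and 33.6 CPM to 19.3, 22.5 and 19.7 in experiment 3, and from 24.2, 20.3 and 20.0 to 12.8, 11.1 and 11.2 in experiment 4. The change in recovery was -0.60 ± 0.10 (adjusted p = 3.27e-05), with Polr1h at 0.13 (adjusted p = 0.269). Scpep1os fell by 0.55 ± 0.13 with Scpep1 at -0.47, Uckl1os by 0.51 ± 0.15, Epb41l4aos by 0.31 ± 0.10 and Rbm3os by 0.29 ± 0.09 (all on the log2 scale). Uchl1os (-0.29) and Zfas1 (-0.28) passed the test but differed in sign between the experiments, with -0.59 and 0.02 for Uchl1os and 0.07 and -0.62 for Zfas1. From the IP libraries alone, without inputs, Uchl1os was higher at 0.27 (adjusted p = 0.00423), and Rbm3os stood at 0.04 (adjusted p = 0.695). On that scale Plet1os, Etaa1os, Scpep1os and Uckl1os were no longer called. Both had higher inputs in the knockout, at 0.52 for Uchl1os and 0.30 for Rbm3os. Leaving out 1 library at a time, 13 of 24 such fits did not call Zfas1, 4 did not call Plet1os, 3 did not call Rbm3os, and 2 each did not call Uchl1os, Uckl1os or Epb41l4aos.

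In the line labelled Upf1 knockout, recovery differed for few members: Plet1os was higher and Zfas1 lower, 2 of 81 tested, where 4.49% of 19966 genes were called, 2.92% higher and 1.57% lower. Zfas1, which was lower with HA-Tnrc6a than with untagged beads (-1.16), stood here at -0.54 ± 0.09 (-0.47 and -0.61 by experiment). Its IP libraries held 342, 328 and 274 CPM in experiment 3 and 188, 162 and 146 in experiment 4, above the HA-Tnrc6a IP libraries, yet below their own inputs of 354 to 397 and 231 to 237. Taken without inputs, the IP of Zfas1 was thus higher by 1.72, and on that scale 32 members were called rather than 2. With library totals in place of TMM factors 0 members were higher and 2 lower. Plet1os stood at 0.83 ± 0.23 (edgeR adjusted p = 0.0323), with 1.61 in experiment 3 and 0.04 in experiment 4. It lost its call with library totals, in experiment 4 alone and when 1 library was dropped (14 of 24 such fits).

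The inputs give the levels of the RNAs in the lysates themselves. In the Ago2 knockout, Uchl1os, Tbx3os2, Uckl1os and Rbfaos were higher and Etaa1os, Nphs1os and Polr1has lower, all by less than 2-fold. A total of 3 low members fell further, Gata6os, Ptprtos (-1.80 ± 0.47) and Atad3aos (-1.40 ± 0.46), named after their values were seen. Of 77 members tested, 7 were higher and 13 lower (20 called), where 30.9% of 19641 genes were called, 15.7% higher and 15.2% lower. Uchl1os inputs held 39.2, 41.3 and 39.0 CPM in the knockout against 25.0, 23.7 and 25.8 in experiment 3, and 22.9, 21.5 and 23.9 against 18.5, 17.0 and 17.6 in experiment 4. The change was 0.52 ± 0.05 (adjusted p = 3.74e-12), and Uchl1 rose by 0.54. Polr1has fell by 0.35 ± 0.06 with Polr1h at -0.25, and Rbm3os rose by 0.30 ± 0.05 with Rbm3, a cold-inducible RNA-binding protein gene, at 0.26. Rbfaos, opposite a mitochondrial ribosome factor gene, rose by 0.32 ± 0.04 with Rbfa at 0.08 (adjusted p = 0.061). Zfas1 and Znfx1 went apart, at -0.12 and 0.60. Small calls near 0.1, such as that of Zfas1 and of Zbtb8os at 0.10, depended on single libraries: 2 and 6 of 12 fits without 1 library lost them, 7 lost Nphs1os, 6 Uckl1os, 3 Epb41l4aos, 2 Tbx3os2 and 1 Etaa1os.

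The member furthest down in Ago2 knockout inputs was Gata6os, named after its values were seen because its level was under the naming rule. Its span overlaps that of Gata6, a transcription factor gene of the endoderm, so the values of the pair may share reads. The 3 knockout inputs of experiment 3 held 0, 0 and 0 counts against 9, 12 and 11 in HA-Tnrc6a cells, and those of experiment 4 held 6, 0 and 2 against 11, 11 and 12 (edgeR adjusted p = 5.33e-06). No fold is given, since some libraries are at 0. Gata6 mRNA fell by 3.23 on the log2 scale. In inputs labelled Upf1 knockout Gata6os had 6, 1 and 1 counts in experiment 3 and 32, 32 and 38 in experiment 4. The 5 endoderm markers (Gata6, Gata4, Sox17, Foxa2 and Dab2) summed to 6.13 to 7.84 CPM in knockout inputs against 29.0 to 33.9 in HA-Tnrc6a inputs over both experiments, to 10.1 to 14.6 and 33.3 to 34.5 in untagged inputs of experiments 3 and 4, and to 11.8 to 13.9 and 45.3 to 48.5 in the labelled Upf1 knockout of experiments 3 and 4. Their part in the result was not tested, and fewer cells of a type and less RNA per cell cannot be told apart in such samples.

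In the line labelled Upf1 knockout the highest called rise among the members' inputs was that of Zfas1. Its 3 inputs held 385, 397 and 354 CPM in experiment 3 against 80.0, 73.7 and 71.3 in HA-Tnrc6a cells, and 231, 234 and 237 against 49.9, 45.7 and 49.6 in experiment 4. The change was 2.31 ± 0.03 (2.33 and 2.29 by experiment; adjusted p = 6.53e-43) while Znfx1 fell by 0.30 on the log2 scale. Epb41l4aos held 77.2, 83.8 and 74.8 CPM against 35.2, 30.6 and 33.9, then 40.9, 41.0 and 42.8 against 20.3, 20.2 and 19.4, a change of 1.15 ± 0.04 (adjusted p = 1.12e-28). No library of one group reached the range of the other. Of the 14 snoRNA host genes, 9 were higher and 2 lower, with a median of 0.53.

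Over the 77 members tested in these inputs, 21 were higher and 19 lower (40 called), where 58.6% of 19444 genes were called, 29.5% higher and 29% lower. The median was -0.03, against -0.02 over all genes. Crxos, a protein-coding member that encodes a homeobox factor of early embryos, rose by 1.33 ± 0.12, from 2.54 to 2.95 CPM up to 6.04 to 6.42 in experiment 3 and from 1.31 to 1.52 up to 2.90 to 4.46 in experiment 4. Brd3os rose by 0.83 ± 0.13, Cebpzos by 0.67 ± 0.05, Plet1os by 0.68 ± 0.20 and Tnk2os by 0.63 ± 0.15. Gnasas1, the imprinted antisense RNA of the Gnas locus also called Nespas, rose by 0.69 ± 0.09. Cebpz, in contrast, was lower at -0.10 and Brd3 stood at 0.03 (adjusted p = 0.349), whereas Plet1 (0.82) and Tnk2 (0.70) rose with their members. Parvaos, a low member named after its values were seen, was higher by 1.42 ± 0.31.

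Lower in these inputs were Etaa1os at -1.28 ± 0.17, Tsix at -0.79 ± 0.07, Pcsk2os1 at -0.72 ± 0.24, Hectd2os at -0.69 ± 0.16, Rab26os at -0.64 ± 0.12, Rbm3os at -0.34 ± 0.06, Pigbos1 at -0.33 ± 0.08 and Tomm6os at -0.31 ± 0.03. Without HA-Tnrc6a input 3 of experiment 3, Pcsk2os1 stood at -0.46 and lost its call, and by experiment it was -0.33 and -1.11. Etaa1os fell from 1.97, 2.03 and 3.07 CPM to 0.994, 1.08 and 1.19 in experiment 3 and from 2.68, 2.29 and 2.96 to 0.847, 1.06 and 1.02 in experiment 4, with Etaa1 at -0.18. Tsix inputs held 7.43, 8.05 and 9.50 CPM against 14.3, 14.2 and 13.4, then 7.59, 6.39 and 7.28 against 11.9, 13.4 and 12.6. Xist fell by 0.79 on the log2 scale beside it. Both comparisons of inputs use the same HA-Tnrc6a libraries, so a member that differs in both is not seen in independent controls. Over the 50 overlapping pairs tested on both sides, member and partner differed by a median of 0.14, and over the 18 others by 0.39. At 5 CPM or more these were 0.15 over 16 pairs and 0.17 over 9.

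**Figure D4:**
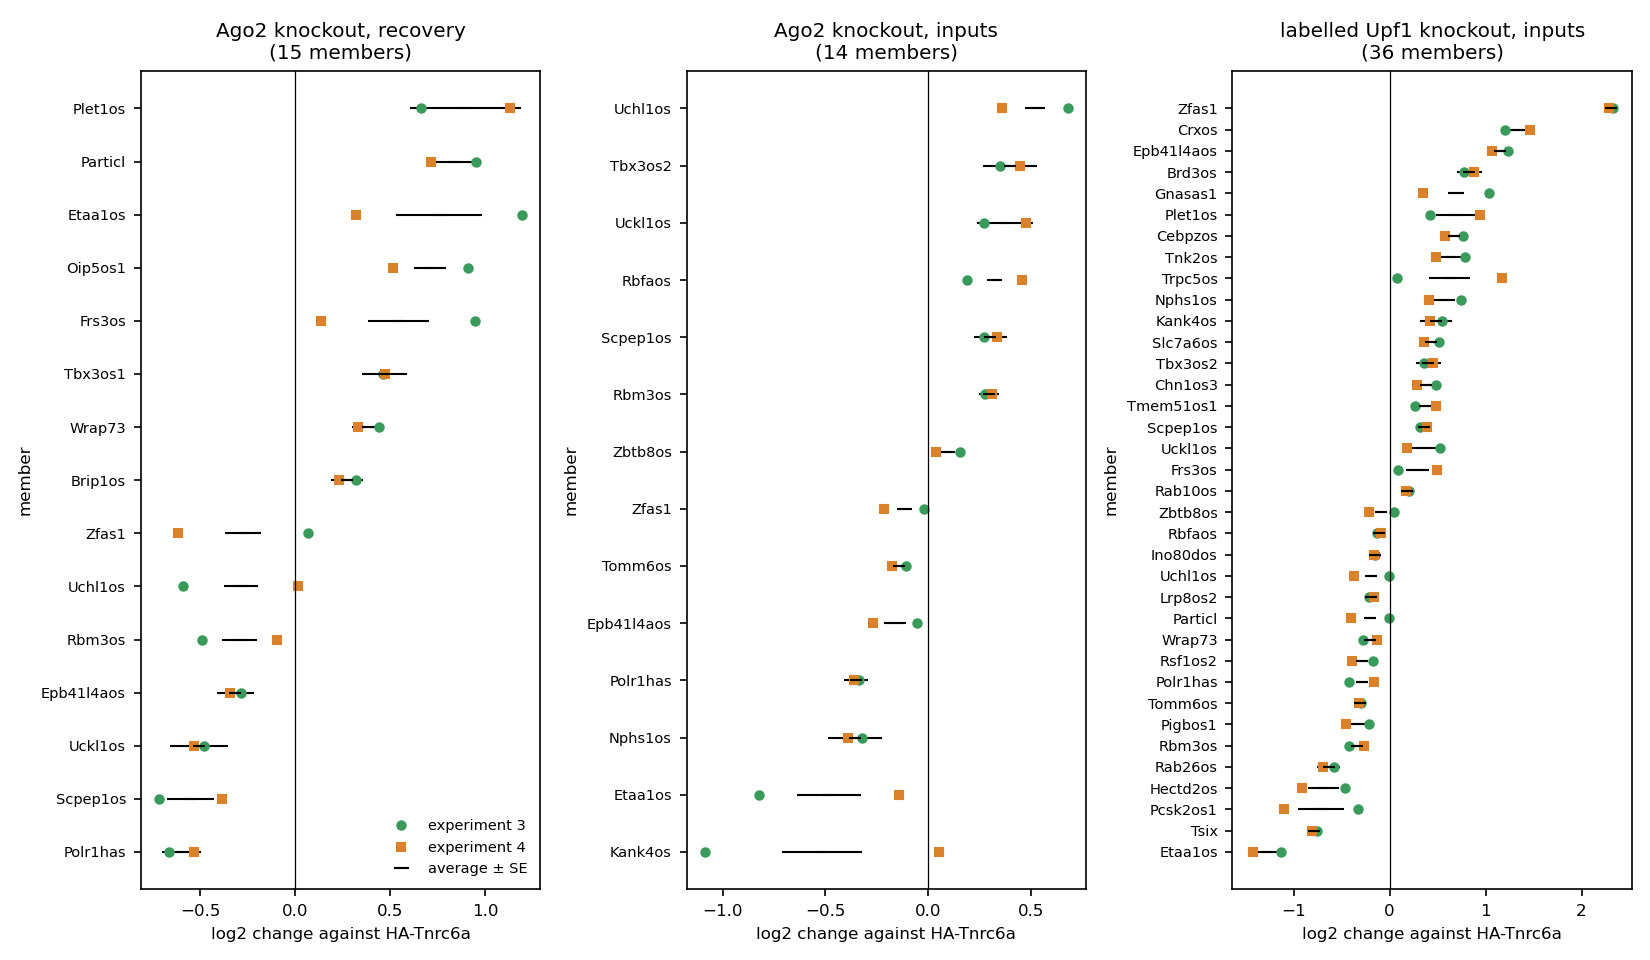
Log2 change against HA-Tnrc6a cells (x axis) for the called members with an average log2 CPM of at least 0 (y axis), with experiment 3 as circles, experiment 4 as squares and black lines at the average ± SE. Panels show recovery in the Ago2 knockout, inputs of the Ago2 knockout and inputs labelled Upf1 knockout, where Zfas1 stands apart at 2.31 with both experiments on the same spot.

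The difference between experiments 3 and 4 was tested as an interaction. It was called for 1 of 83 members in the enrichment (0.365% of all genes), 3 of 77 in Ago2 knockout inputs (5.94%) and 6 of 77 in inputs labelled Upf1 knockout (11.6%). In the recovery comparisons edgeR called 0 members, where 0.195% of genes were called for the Ago2 knockout and 0.115% for the labelled Upf1 knockout. At an unadjusted p under 0.05 there were 12 and 7 members, and DESeq2 called 1 and 0.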

How the data were processed

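RIP-seq and input libraries of 4 cell lines in 2 experiments were used, 3 dishes per group and 48 libraries in all. The authors deposited a table of raw counts per gene, per the file headers, with a gene length column whose header names quasr. The submitters' processing notes name STAR 2.7.3a and the builds GRCm38 and mm10, and the strand setting and annotation of the counting are not given in the sources used here. The table's 48 columns headed rpkm were not used. Columns numbered 1 to 6 within a line and fraction were read as experiment 3 (1 to 3) and experiment 4 (4 to 6), which is inferred from the numbering and is not stated.

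Counts were fitted over all genes with edgeR 4.0.16 (quasi-likelihood F-test, two-sided, TMM, filterByExpr with a minimum count of 10, limma 3.58.1, R 4.3.3), 1 coefficient per group, averaged over experiments with equal weight. Calls are at a Benjamini-Hochberg adjusted p under 0.05 over all genes tested. CPM values use TMM factors over all 48 libraries. IP over input within a line is the log2 ratio of mean CPM with 0.05 CPM added. Library totals ran from 11471544 to 73845953 counts, and replicates differed by more than counting error in every group (chi-square per degree of freedom from 1.96 to 36.2). Replicates are dishes of a line, so p-values measure the spread between dishes. DESeq2 1.42.0, other scalings, no filter, each experiment alone, IPs without inputs, a replicate block and leaving out each library were tried as alternatives. The fit was tested on simulated data.

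Members named are the 10 highest in the inputs, up to 8 per direction and comparison with the largest change among called members whose sign agreed across experiments and whose mean log2 CPM was 0 or more, and a fixed list of antisense RNAs with a known role. The members and lists were chosen with earlier results of these data known.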

Additional observations from a re-analysis of the deposited data

Results flagged for a closer look

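For a few members the change differed between experiments 3 and 4, by the edgeR quasi-likelihood test of the interaction at an adjusted p under 0.05. The differences are given as experiment 4 minus experiment 3 on the log2 scale. In the recovery with HA-Tnrc6a the only such member was Slc7a6os, with a difference of -0.63 (-0.67 in experiment 3 and -1.30 in experiment 4).

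In the inputs of the Ago2 knockout the difference was 0.27 for Rbfaos, 0.44 for Tsix and -0.32 for Uchl1os. Rbfaos and Uchl1os rose in both experiments, by 0.19 and 0.46 and by 0.68 and 0.36. Tsix was not called on average.

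In inputs labelled Upf1 knockout the difference was -0.68 for Gnasas1, -0.40 for Particl, 0.51 for Tbx3os1, -0.36 for Uchl1os and -0.26 for Zbtb8os. The largest of the 6 was that of Gata6os, 3.67, which stood at -2.04 in experiment 3 and 1.63 in experiment 4 with few counts (6, 1 and 1 against 9, 12 and 11, then 32, 32 and 38 against 11, 11 and 12). Gnasas1 stood at 1.03 and 0.35 in experiments 3 and 4. Uchl1os and Particl stood near 0 in experiment 3 (-0.01 and -0.00) and were lower in experiment 4 (-0.37 and -0.41).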

How the results depend on the processing

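The alternatives were followed for 73 values of named members, in the comparisons they were named for or among the highest levels. All 73 were called in the main fit, and values not called were not followed. Of the 73, 39 stayed called and kept their sign under every alternative run. DESeq2, size factors, no filter and the replicate block changed none of the 73. Each experiment alone has fewer libraries. In experiment 3 alone 25 of the 73 values lost their call and 2 reversed, and in experiment 4 alone 11 and 1. Experiment 3 alone called 23 members in the HA-Tnrc6a recovery and 8 in the Ago2 knockout recovery. It called 7 in Ago2 knockout inputs and 21 in inputs labelled Upf1 knockout. IPs without inputs called 32 in the labelled Upf1 knockout. For the difference between experiments, library totals gave 2 in the HA-Tnrc6a recovery, DESeq2 gave 1 and IPs without inputs 2 in the Ago2 knockout recovery, and IPs without inputs 1 in the labelled Upf1 knockout; the cause was not tested.

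The sign reversed for Zbtb8os in inputs labelled Upf1 knockout (0.0466 in experiment 3 alone), for Uchl1os in the Ago2 knockout recovery (0.0312 in experiment 4 alone, 0.27 from IPs), for Rbm3os (0.0378 from IPs) and Zfas1 (0.0461 in experiment 3 alone) in the same comparison, and for Zfas1 in the labelled Upf1 knockout recovery (1.72 from IPs).

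Leaving out 1 library at a time gave 41 to 46 members in the HA-Tnrc6a recovery (0 to 2 for the difference between experiments), 10 to 16 (0 to 2) in the Ago2 knockout recovery, 1 to 3 (0 to 0) in the labelled Upf1 knockout recovery, 14 to 19 (1 to 4) in Ago2 knockout inputs and 33 to 43 (3 to 7) in inputs labelled Upf1 knockout.

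The labels do not say whether same-numbered libraries belong together. Their deviations correlated at a mean of 0.011 over 168 pairs of any line and fraction. Over the 24 pairs of input and IP of the same number and line the mean was 0.020 (-0.035 to 0.167). The replicate block was shared by all lines and fractions of an experiment, so pairing of input and IP within a line was not fitted. With the replicate block 43, 15, 3, 22 and 41 members were called in the comparisons in the same order, and 1, 0, 0, 3 and 6 for the difference between experiments. Depth limits the 26 members under 1 CPM.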
